A study of Mus musculus with 321 samples.

Results

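The replication-dependent histone genes are described here across 12 ATAC-seq libraries, 4 histone-mark libraries and 1 list of Tcf-1 binding summits from mouse thymocytes and fibroblasts. Members were all protein-coding genes of the RefSeq table (GRCm38.p6) whose symbol or synonym begins with Hist1h, Hist2h or Hist3h. This gave 66 of 21887 protein-coding genes: 54 in the Hist1 cluster, 10 in Hist2 and 2 in Hist3. By class they were 6 H1 linker histones, 18 H2A, 18 H2B, 12 H3 and 12 H4 genes.

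Replication-dependent histone genes supply the bulk of the histones that package newly copied DNA, and they are transcribed mainly while DNA is replicated. Most lack introns, and their mRNAs end in a stem-loop in place of a poly(A) tail. They lie in tight clusters held in a nuclear body, and many H2A and H2B genes are arranged head to head around a shared promoter. Thymocytes at the CD4+CD8+ (double positive, DP) stage follow a burst of cell division in the thymus, and Tcf-1, encoded by Tcf7, is a DNA-binding protein needed for T cell development.

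The thymocyte libraries came from FACS-purified CD4+CD8+ T cells of C56BL/6 mice (strain as labelled), either wild type (WT, 2 libraries) or TCF-1-/- deltaVII (KO, 2 libraries), a germline allele carried by every cell of the animal. The fibroblast libraries came from NIH3T3, an established NIH/Swiss mouse embryo line used at passages 8 to 12, transduced with Empty RV (4 libraries) or Tcf-1 RV (4 libraries), retroviral vectors without and with Tcf-1. ATAC-seq, which cuts accessible DNA with a transposase, was run on 50000 cells per library with 45 to 75 minutes of tagmentation, and each file was a list of peak positions. H3K27me3 and H3K9me3, marks of repressed chromatin, were measured in NIH3T3 in 2 replicates each, and Tcf-1 binding in NIH3T3 with Tcf-1 RV as 1 pooled summit list. The labels do not state whether replicates are separate animals or separate cultures, and any p-value therefore measures only the spread between these libraries. In bulk libraries, fewer cells of a type and less open chromatin per cell cannot be told apart.

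The lists differed in length, which bears on every count below. WT lists held 23249 and 30985 peaks and KO lists 11171 and 12209. Empty RV lists held 22778 to 58026 peaks, the shortest being replicate 1, and Tcf-1 RV lists 36583 to 62639. Of 12 DP thymocyte marker genes, 11 and 12 had a peak in the WT libraries and 4 and 9 in the KO libraries, and of 12 fibroblast markers 8 to 12 had one in the fibroblast libraries against 2 and 6 in WT and 0 and 1 in KO. Markers of other cells that a thymocyte sort could hold were also counted. Of 6 B cell genes, 2 and 2 had a peak in WT and 1 and 0 in KO. Of 6 myeloid genes, 2 and 3 had one in WT and 1 and 0 in KO. Of 4 thymic epithelial genes, 0 and 2 had one in WT and 1 and 1 in KO. Of all protein-coding genes, 53% and 58.2% had a peak in WT and 42.1% and 43.7% in KO. Lists this short do not check the purity of the sort. Tcf7 itself held a peak in 2 of 2 WT and 2 of 2 KO libraries, which does not check a deletion inside the gene. The fibroblast ATAC files carry day 2 (replicates 1 and 2) or day 4 (replicates 3 and 4) in their names. The labels do not give the day, so it was used only as a batch. The name of the Tcf-1 summit list carries day 2.

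The Hist1 cluster lies on mm10 chr13:21715711-23934913, a span of 2.22 Mb that falls into blocks of 18 genes (0.122 Mb), 5 genes (8.54 kb), 29 genes (0.233 Mb) and 2 genes (1.19 kb). The last block holds H2bc1 and H2ac1, testis-specific H2B and H2A genes. Hist2 lies on chr3:96219885-96270192 (50.3 kb), and Hist3, with H2bu2 and H2aw, on chr11:58948911-58955192 (6.28 kb). The 18-gene, 5-gene and 2-gene blocks of Hist1 and the Hist2 cluster contained no other protein-coding gene, and the 29-gene block contained 1, Hfe.

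Promoter letters matter here because open chromatin near these genes often covered the start sites and because some promoters are near-copies of each other. RefSeq promoter windows (250 bases before to 50 after the start) existed for 61 of the 66 members, giving 62 windows, and H2bc21, H4c14, H3c7, H2bc4 and H3c1 had none. The following sequences are the 250 bases before the start, 5′ to 3′ on the gene's strand, GRCm38.p6. Capitals mark 5 motifs on either strand. The CCAAT box was searched as CCAAT. The TATA box was searched as TATAAA. The octamer was searched as ATTTGCAT. The core of a Tcf/Lef site was searched as CTTTGA. An E2F site was searched as TTCCCGC. Matches of 1 motif were not kept from overlapping those of another. H2ac12 (chr13:22035644-22035893, minus strand) and H2bc12 (chr13:22035571-22035820, plus strand) are shown as a head-to-head pair that was open in all 12 libraries.
H2ac12: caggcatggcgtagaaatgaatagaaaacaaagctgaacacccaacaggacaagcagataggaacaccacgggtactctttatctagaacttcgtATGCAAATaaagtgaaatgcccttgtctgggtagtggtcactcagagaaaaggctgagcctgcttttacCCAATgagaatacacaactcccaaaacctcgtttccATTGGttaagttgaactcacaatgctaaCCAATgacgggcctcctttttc
H2bc12: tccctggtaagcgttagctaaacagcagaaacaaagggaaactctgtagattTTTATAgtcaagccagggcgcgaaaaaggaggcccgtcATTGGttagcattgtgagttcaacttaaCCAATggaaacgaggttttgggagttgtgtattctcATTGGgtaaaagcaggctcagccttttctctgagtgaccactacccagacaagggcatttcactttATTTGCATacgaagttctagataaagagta

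The H4 promoters of H4c9 (chr13:22041363-22041612, minus strand) and H4c6 (chr13:23551669-23551918, minus strand) are shown because a peak over them was found in WT and not in KO thymocytes. H2bu2 (chr11:58948661-58948910, plus strand) was open in thymocytes and lay under H3K27me3 in fibroblasts, and H1f2 (chr13:23738557-23738806, plus strand) was open in 7 of 8 fibroblast libraries and in no thymocyte library.
H4c9: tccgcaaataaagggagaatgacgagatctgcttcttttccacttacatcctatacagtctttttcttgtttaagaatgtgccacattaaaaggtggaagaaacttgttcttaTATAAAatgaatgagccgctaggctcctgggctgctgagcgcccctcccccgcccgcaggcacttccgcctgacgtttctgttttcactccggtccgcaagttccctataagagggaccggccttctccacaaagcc
H4c6: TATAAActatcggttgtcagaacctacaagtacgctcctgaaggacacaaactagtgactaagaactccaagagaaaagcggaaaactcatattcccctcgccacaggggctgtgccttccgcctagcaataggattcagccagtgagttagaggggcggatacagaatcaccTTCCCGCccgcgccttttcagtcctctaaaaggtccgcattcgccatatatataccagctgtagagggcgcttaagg
H2bu2: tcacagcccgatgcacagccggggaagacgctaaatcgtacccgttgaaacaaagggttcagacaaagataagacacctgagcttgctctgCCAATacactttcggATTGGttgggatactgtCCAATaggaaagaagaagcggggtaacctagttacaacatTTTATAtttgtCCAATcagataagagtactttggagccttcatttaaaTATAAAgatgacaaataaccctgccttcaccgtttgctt
H1f2: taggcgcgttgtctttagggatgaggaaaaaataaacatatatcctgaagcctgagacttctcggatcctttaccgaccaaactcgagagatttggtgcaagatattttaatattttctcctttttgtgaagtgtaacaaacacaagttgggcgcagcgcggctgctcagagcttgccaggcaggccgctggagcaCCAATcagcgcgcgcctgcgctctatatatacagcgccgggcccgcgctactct

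H2ac23 (chr13:21810117-21810366, plus strand) and H2ac24 (chr13:21833476-21833725, minus strand) stand for the promoters that share long stretches with others of the family. Of their 50-base words, 86.9% and 73.3% also occurred in another member's window, and no peak lay over either in any library.
H2ac23: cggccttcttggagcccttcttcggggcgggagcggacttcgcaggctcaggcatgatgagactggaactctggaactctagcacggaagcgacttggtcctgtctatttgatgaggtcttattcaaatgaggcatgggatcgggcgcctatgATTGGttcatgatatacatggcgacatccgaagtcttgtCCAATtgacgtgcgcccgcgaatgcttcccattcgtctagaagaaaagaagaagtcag
H2ac24: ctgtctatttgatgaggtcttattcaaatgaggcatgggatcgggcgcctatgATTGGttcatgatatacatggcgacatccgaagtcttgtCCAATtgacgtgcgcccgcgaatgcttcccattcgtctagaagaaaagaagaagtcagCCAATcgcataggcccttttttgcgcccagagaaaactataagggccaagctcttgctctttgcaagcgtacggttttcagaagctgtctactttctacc

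The classes carried different letters. On either strand, a CCAAT box lay in 54 of 62 member windows (87.1%, against 37.4% of all 32851 promoters in the table), in all 18 H2A, 17 H2B, 10 H3 and 6 H1 windows but in 3 of 11 H4 windows. TATAAA lay in 35 (56.5% against 13.6%). The octamer, a site for Oct-1 (Pou2f1) known from H2B promoters, lay in 14 windows (22.6% against 1.74%), 7 H2A and 7 H2B. The E2F letters lay in 6 (9.68% against 4.60%), of which 5 were H4, and the Tcf/Lef core in 7 (11.3% against 16%). In the printed H4c9 sequence only the letters TATAAA are marked, while H2ac12 and H2bc12 share the same octamer and CCAAT boxes read from opposite strands. Matches were taken at any distance from the start, so TATAAA letters need not be a working TATA box. These matches describe the letters in this window only.

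Most peaks centred within 1 kb of a member start lay close to it. Only such peaks, at starts with a promoter window, are counted here. Peaks farther out, such as those past the ends of H1f5 and H1f3, are left out. The centre of the counted peaks lay a median of 28 bp upstream in WT, 30 bp in KO, 42 bp with Empty RV and 49.5 bp with Tcf-1 RV. Within 250 bp of the start were 85.7% of the WT peaks, 97.1% of the KO peaks, 85.3% with Empty RV and 78.9% with Tcf-1 RV. Median widths were 0.5 kb in WT, 0.2685 kb in KO, 0.344 kb with Empty RV and 0.3405 kb with Tcf-1 RV.

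**Figure D1:**
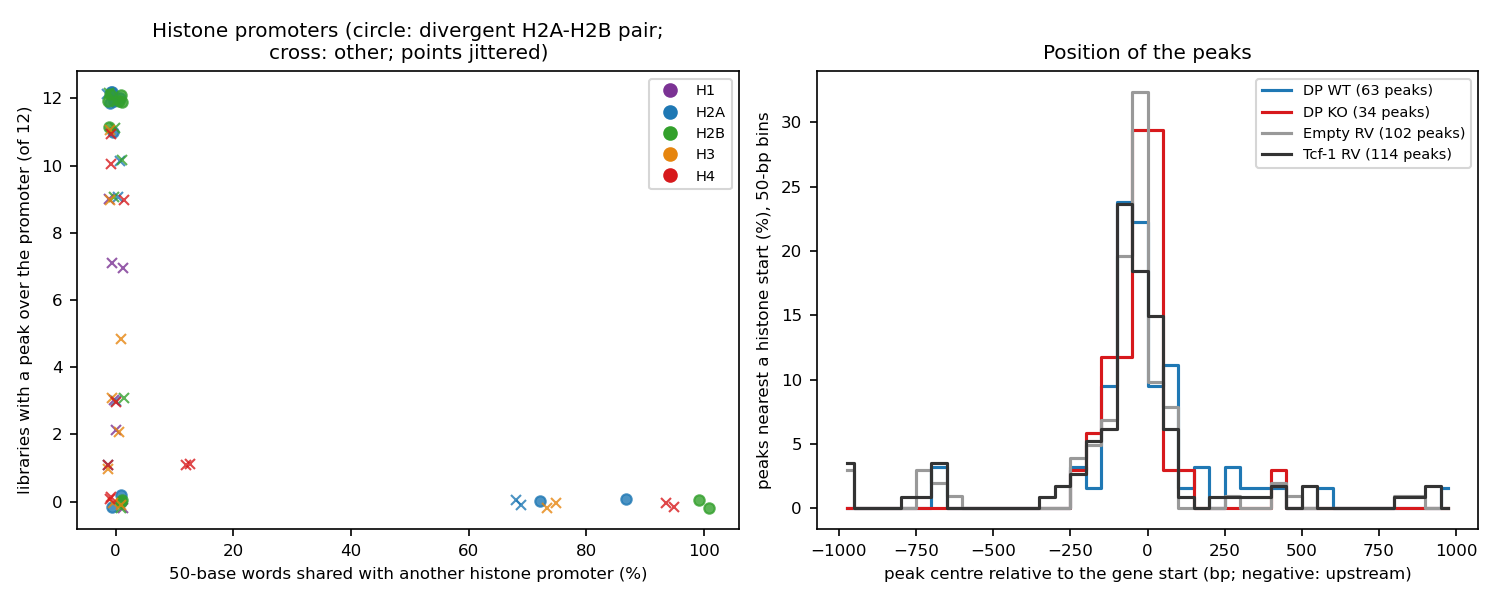
Left, each point is a histone promoter, with the percentage of its 50-base words found in another histone promoter on the x axis and the number of the 12 libraries with a peak over it on the y axis (circles, head-to-head H2A-H2B pairs; crosses, others; colours, classes; points jittered). The 10 promoters at the right all sit at 0 libraries. Right, positions of peak centres relative to the gene start (bp), as a percentage of each arm's peaks centred within 1 kb of a start. Most of these peaks are within 250 bp of the start.

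A member was counted as open in a library when at least 1 bp of a peak lay within 1 kb of it. Its peak length is the number of bases in that window covered by peaks. A longer gene has a wider window, and shares counted in this window were not matched for gene length. Of the 66 members, 40 and 42 were open in the WT libraries, 29 and 30 in KO, 24, 37, 40 and 43 in Empty RV replicates 1 to 4, and 39, 39, 37 and 40 in Tcf-1 RV. As shares these were 60.6% and 63.6% in WT against 53% and 58.2% of all protein-coding genes, and 43.9% and 45.5% in KO against 42.1% and 43.7%. In Empty RV replicate 1 the share was 36.4% against 46.6% of all genes, the widest gap below all genes in any library. In the other 7 fibroblast libraries, members (56.1% to 65.2%) lay within a few points of all genes (55.7% to 64.7%).

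**Figure D2:**
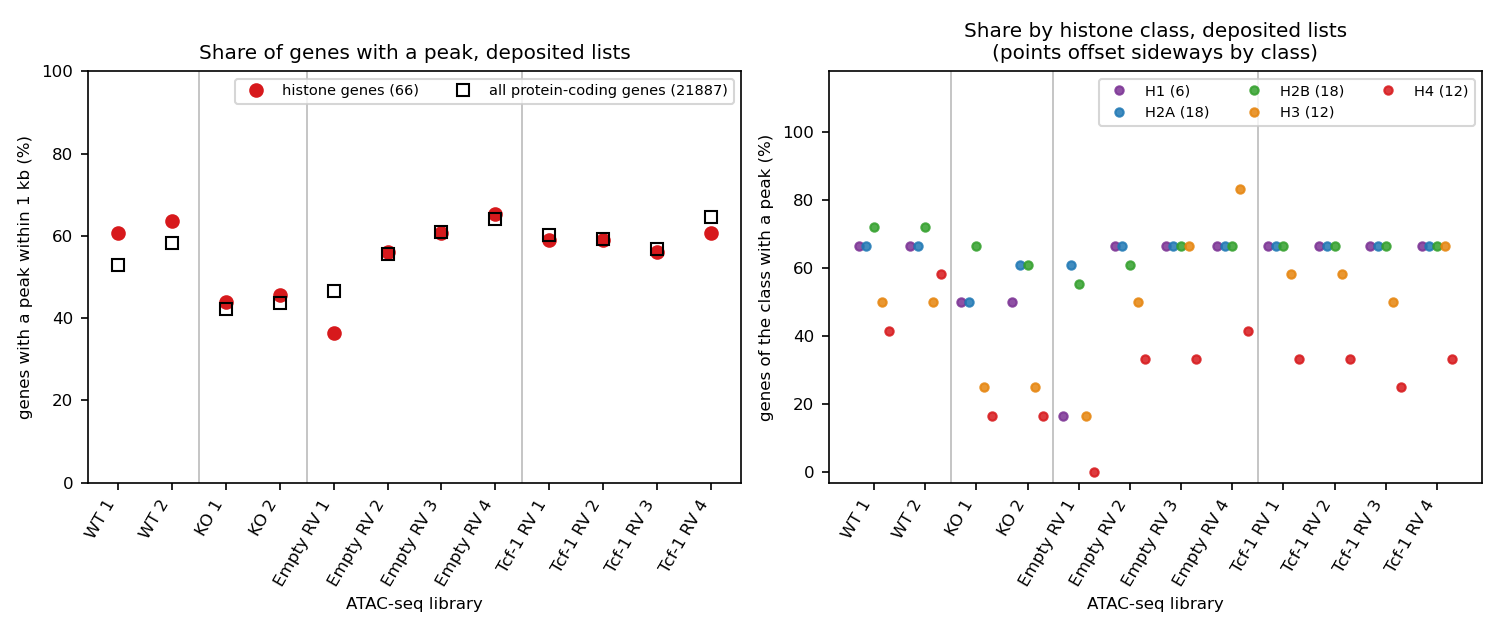
Left, the percentage of the 66 histone genes (red) and of all 21887 protein-coding genes (open squares) with a peak within 1 kb in each of the 12 libraries. Right, the same percentage by histone class; H4 (red) is the lowest class in 11 of 12 libraries, and H1, H3 and H4 all lie under H2A and H2B in Empty RV replicate 1.

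Of all members, 18 (27.3%) were open in all 12 libraries, beside 33.4% of all genes, and 19 (28.8%) in none, beside 28.9%. The 18 were 9 H2A, 8 H2B and 1 H1 gene: H2ac21, H2ac20, H2aw, H2bc14, H2ac22, H2bc22, H2ac12, H2bc12, H2ac11, H2bc11, H1f3, H2ac8, H2bc8, H2bc7, H2ac7, H2ac6, H2bc4 and H2bc3. No H3 and no H4 gene was among them. The median number of open libraries per gene was 11.5 for H2A, 11 for H2B, 8.5 for H1, 6 for H3 and 1 for H4.

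The members with the most peak length over the 12 libraries were H2bc6 (10.4 kb) and H1f4 (10.1 kb), which share regions because the H2bc6 annotation runs 37.5 kb up to H1f4. H3c1 followed (7.93 kb), then H2ac21 and H2ac20 (7.33 kb each), H2aw (7.12 kb), H2ac6 (6.77 kb), H2bc4 (6.69 kb), H2bc3 (6.55 kb) and the H2ac12-H2bc12 pair (6.23 kb each). The pair H2ac12-H2bc12 held 0.547 and 0.648 kb in WT, 0.266 and 0.277 kb in KO, 0.341, 0.638, 0.591 and 0.582 kb in Empty RV and 0.686, 0.562, 0.410 and 0.678 kb in Tcf-1 RV. Both KO values lay below both WT values, and the fibroblast arms overlapped. H2aw, an H2A gene of Hist3, held 0.680 and 0.636 kb in WT, 0.206 and 0.299 kb in KO, 0.424, 0.590, 0.599 and 0.854 kb in Empty RV and 0.674, 0.693, 0.588 and 0.874 kb in Tcf-1 RV. It showed the same order in thymocytes and the same overlap in fibroblasts.

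**Figure D3:**
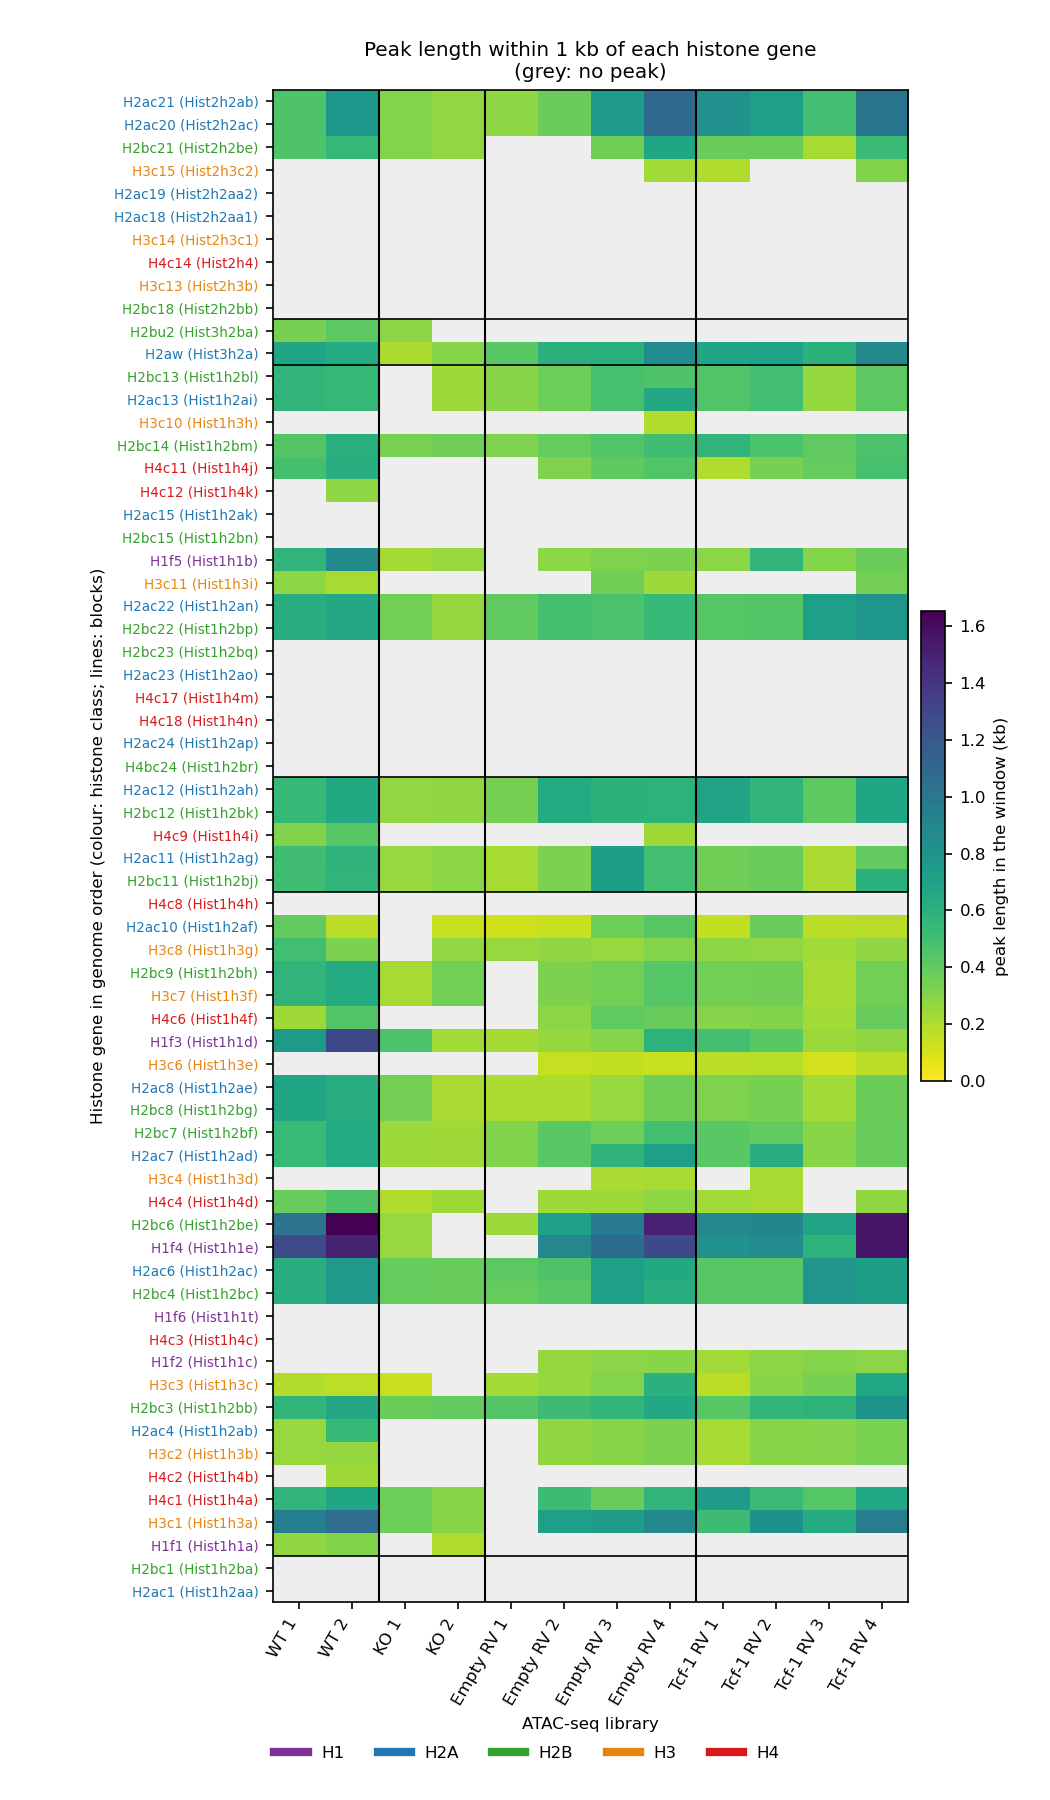
Peak length within 1 kb of each of the 66 histone genes (rows, in genome order, with older symbols; text colour, class; horizontal lines, blocks) in each of the 12 ATAC-seq libraries (columns). Grey cells have no peak: 19 rows are grey throughout, and 18 rows are coloured throughout.

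Head-to-head H2A-H2B pairs were open either in nearly every library or in none. Of the members with a promoter window, 20 form 10 H2A-H2B pairs whose starts point away from each other and lie 0.164 to 0.281 kb apart. Over the promoter window itself, 10 of these 20 genes had a peak in all 12 libraries and 8 in none. Of the other 41 members with a window, 4 had a peak in all 12 and 12 in none. A pair needed a window for both genes, so the 41 can hold partners of H2bc21, H4c14, H3c7, H2bc4 or H3c1. H2ac6, among those 4, shares its region with H2bc4. Of all 17492 protein-coding genes with a window, 4722 had a peak over it in all 12 libraries and 7970 in none. By pair, H2ac22-H2bc22, H2ac12-H2bc12, H2ac11-H2bc11, H2ac8-H2bc8 and H2bc7-H2ac7 were open in 12 libraries and H2bc13-H2ac13 in 11. The pairs H2ac15-H2bc15, H2bc23-H2ac23, H2ac24-H4bc24 and H2bc1-H2ac1 were open in none. H4bc24 is the table's symbol for Hist1h2br, an H2B gene. The 2 genes of a pair share their peak, so the 10 pairs and not the 20 genes are the separate observations.

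The 19 members without a peak in any library were H2ac19, H2ac18, H3c14, H4c14, H3c13, H2bc18, H2ac15, H2bc15, H2bc23, H2ac23, H4c17, H4c18, H2ac24, H4bc24, H4c8, H1f6, H4c3, H2bc1 and H2ac1. Among them were the testis-specific linker histone gene H1f6 and the testis-specific pair H2bc1-H2ac1. Of the 10 windows that shared at least 50% of their 50-base words with another member's window, 10 had no peak over them in any library, and of the other 52 windows 10 had none, 14 had a peak in all 12 libraries and the median was 9 libraries. The windows of H2bc23 and H4bc24 were identical (100%), and those of H4c17 and H4c18 were 99% identical, while the other 6 of the 10 were 60.7% to 89.7% identical to their closest window. H3c15 belonged to these 10 windows but counted as open near the gene in 3 fibroblast libraries through a region at chr3:96238072-96238381. The treatment of reads that map to several places was not given in the sources used here, so the values of these 10 are uncertain, and the part of sequence copies in their lack of peaks was not tested.

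The comparison of WT and KO thymocytes asks how open chromatin in DP cells depends on Tcf-1. Fewer histone genes were open in KO, and the genes that were open in both WT and in neither KO library were H4c11, H3c11, H4c9, H4c6, H2ac4 and H3c2. Of these 6, 5 were H3 or H4 genes, but without KO replicate 1 the pattern held 10 genes and without KO replicate 2 it held 11, of which 6 each were H3 or H4 genes. They made up 6 of 66 members (9.09%), beside 8.01% of all genes, so their share lay near that of all genes. No member showed the reverse pattern (0.0366% of all genes did). Of the members, 40 were open in both WT libraries (60.6%, beside 52.7%) and 25 in all 4 libraries (37.9%, beside 39.4%). By class, 9 of 18 H2A, 10 of 18 H2B, 2 of 12 H3, 2 of 12 H4 and 2 of 6 H1 genes were open in all 4. With 2 against 2 libraries, the tests used here, the exact permutation test and Fisher's exact test, both two-sided, cannot give a p under 0.333.

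H4c11 (chr13, Hist1h4j) held 0.489 and 0.611 kb in WT and 0 kb in both KO libraries. Its WT region (chr13:21735071-21735681) began 0.037 kb after the start and ran past the gene (0.423 kb). H4c9 (Hist1h4i) held 0.314 and 0.428 kb in WT and 0 in KO, and its region (chr13:22041065-22041492) covered the start. Both genes were picked for a peak in both WT and neither KO library, so WT values above KO values follow from the choice.

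H4c6 (Hist1h4f) held 0.235 and 0.444 kb in WT and 0 in KO, with a region over its start (chr13:23551359-23551802). H3c11 (Hist1h3i) held 0.278 and 0.219 kb in WT and 0 in KO (chr13:21783273-21783578). H3c2 (Hist1h3b) held 0.258 and 0.262 kb in WT and 0 in KO (chr13:23752197-23752474). All these are core histone genes with a region over the start. H2ac4 held 0.258 and 0.547 kb in WT and 0 in KO, but its call rests on the H3c2 region, which lies within 1 kb of it. Its own start carried a region in WT replicate 2 alone.

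The 6 members open in WT alone had less peak length in WT than those open in KO as well. Their mean WT peak length had a median of 0.355 kb (0.248 to 0.550), against 0.616 kb (0.420 to 1.024) for the 25 members open in all 4 libraries. Over all genes the same medians were 0.408 and 0.764 kb. In Empty RV replicate 1, the fibroblast library with the shortest list, 0 of these 6 and 18 of the 25 members were open, and in the other 7 fibroblast libraries 4 to 6 and 24 to 25. Over all genes the counts were 790 of 1754 and 7338 of 8633 in Empty RV replicate 1, and 1084 to 1386 and 8117 to 8408 in the other 7.

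By class, H4 genes were open in 5 and 7 cases in WT and in 2 and 2 in KO, H3 genes in 6 and 6 against 3 and 3, and H1 genes in 4 and 4 against 3 and 3. H2A genes were open in 12 and 12 against 9 and 11, and H2B genes in 13 and 13 against 12 and 11. The same classes were short in Empty RV replicate 1, with 0 H4, 2 H3 and 1 H1 gene open beside 11 H2A and 10 H2B genes. The Empty RV replicate 1 list held 22778 peaks. WT replicate 1, with 23249 peaks, had 5 H4, 6 H3 and 4 H1 genes open beside 12 H2A and 13 H2B genes. Whether a difference between classes exists beyond list length was not tested.

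When each thymocyte list was cut to its 11171 widest peaks, the length of the shortest list, 32 and 32 members were open in WT and 29 and 29 in KO. In that setting 1 member, H4c11, was open in both WT and neither KO library, beside 1.92% of all genes, and 24 members were open in all 4, beside 32.4%. H4 genes were then open in 3 and 4 cases in WT and 2 and 2 in KO, and H3 genes in 4 and 3 against 3 and 3. Over the promoter window alone, with the deposited lists, 5 of 61 members were open in both WT and neither KO library, beside 4.58% of all genes, and 19 in all 4, beside 34.1%.

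Peak length near members was lower in KO, as it was over all genes. The mean was lower in KO at 42 of 42 members with a thymocyte peak, with a median difference of -0.326 kb, and at 12316 of 12875 genes with a thymocyte peak, with a median of -0.255 kb. Divided by the bp of all peaks in the library, 23 members were lower and 19 higher in KO. The members together took 1457 and 1316 bp per Mb of peaks in WT and 1159 and 1033 in KO, against 597 to 731 in Empty RV and 566 to 679 in Tcf-1 RV. The WT and KO values did not overlap on this scale either, and all 4 thymocyte values lay above all 8 fibroblast values.

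Merged across libraries, 36 thymocyte regions lay near members, and 19 of them lay near more than 1 member. Of these 36, 15 (41.7%) were in all 4 libraries, beside 29.2% of all regions. A further 11 (30.6%) were in both WT and neither KO library, beside 31.7%, and 0 in the reverse pattern, beside 0.142%. The regions in all 4 had a median width of 0.648 kb and those in WT alone 0.444 kb. The start of a member with a promoter window was covered by 14 of the 15 and 7 of the 11. Starts of members without a promoter window, such as H3c1, were not scored. The share of WT-only regions near histone genes was thus close to that of all regions.

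At some genes, regions of the same gene differed in pattern. At the linker gene H1f5, the region over the start (chr13:21780207-21780728) was in both WT and neither KO library, and the region past the end of the gene (chr13:21779374-21779787) was in all 4. At H1f3 the order was the other way round: the region over the start (chr13:23554954-23555642) was in all 4, and the one from 0.681 kb after the start (chr13:23555713-23556373) was in WT only. H1f5 held 0.573 and 0.860 kb in WT and 0.224 and 0.253 kb in KO, and H1f3 0.752 and 1.30 kb against 0.467 and 0.232 kb. H1f4, with 1.27 and 1.49 kb in WT and 0.254 and 0 kb in KO, had no KO region over its start, where WT did (chr13:23622092-23622697). H2bc6, whose WT values were 1.03 and 1.65 kb and KO values 0.254 and 0 kb, had none in KO over 1 of its 2 annotated starts (chr13:23585691-23586224). H3c1 held 0.940 and 1.06 kb in WT and 0.362 and 0.295 kb in KO, with a region in all 4 libraries that it shares with H4c1 (chr13:23761023-23761772) and a WT-only region at its high-coordinate end (chr13:23762217-23762637).

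**Figure D4:**
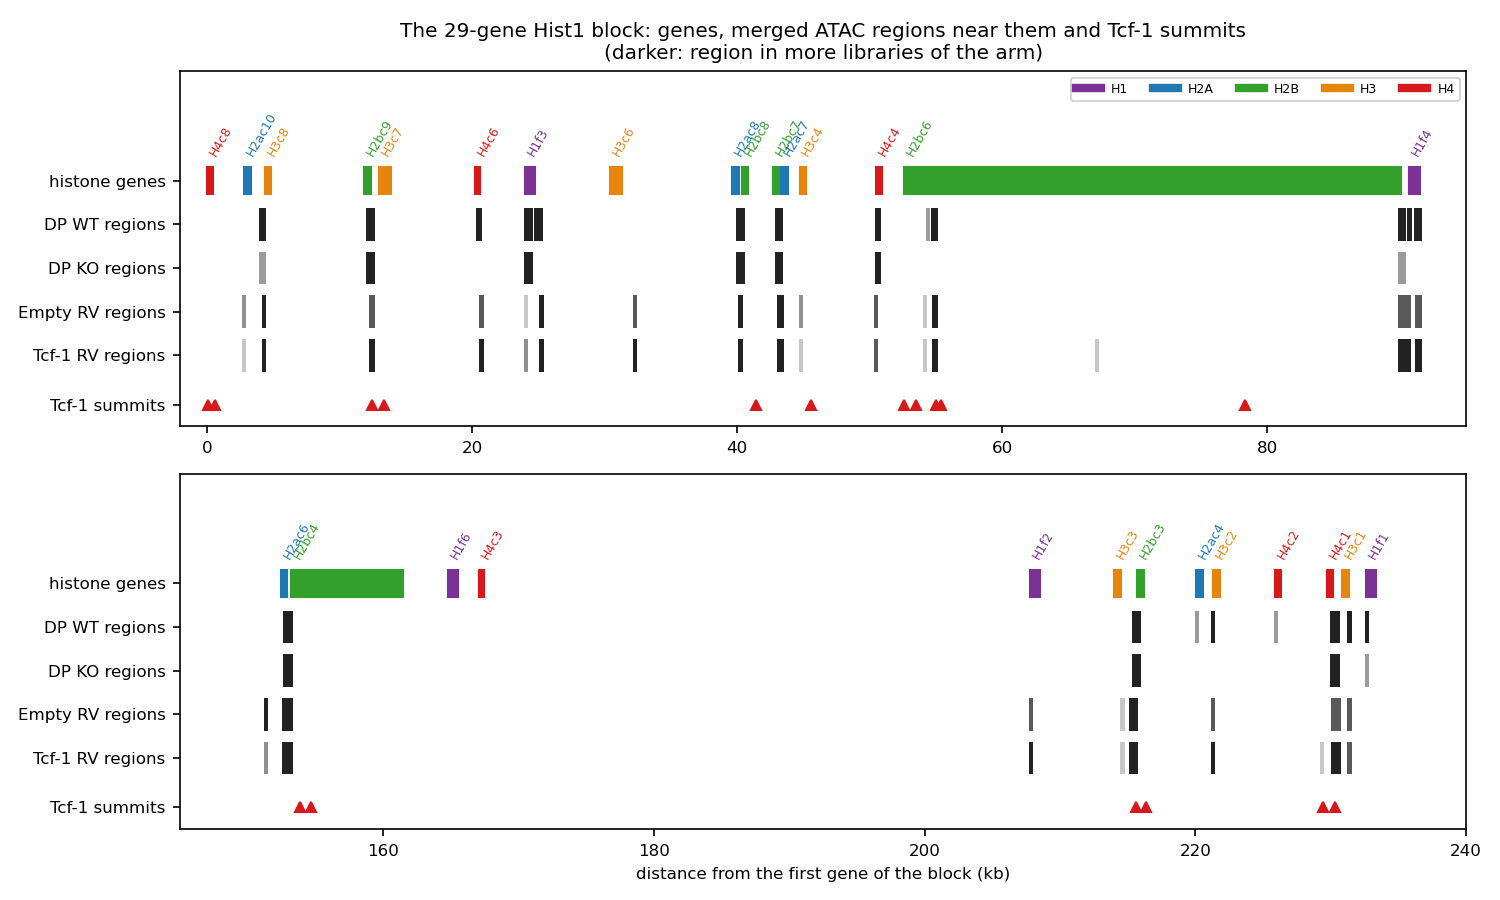
The 29-gene Hist1 block in 2 stretches, by distance from its first gene (kb): histone genes coloured by class, merged ATAC regions within 1 kb of them in each arm (darker bars, more libraries of the arm) and Tcf-1 summits (triangles). The WT row has more regions than the KO row, as at H4c6, H1f4 and H3c2, and H1f2 and H3c6 have regions in the fibroblast rows only.

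The comparison of Tcf-1 RV with Empty RV asks how ectopic Tcf-1 changes open chromatin in fibroblasts. No histone gene was open in all 4 Tcf-1 RV and no Empty RV library (0.0685% of all genes were), and none in the reverse pattern (0.00914%). Of the members, 24 (36.4%) were open in all 8 libraries, beside 45.5% of all genes. The number open ranged from 37 to 40 in Tcf-1 RV (38.8 ± 1.26, SD, n = 4) and from 24 to 43 in Empty RV (36 ± 8.37, SD, n = 4), so the arms overlapped.

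No member passed any test between the arms. By the exact two-sided permutation test on peak length, 0 members and 0.699% of all genes had an unadjusted p under 0.05. After Benjamini-Hochberg adjustment over all genes none did, the smallest p that 4 against 4 libraries can give being 0.0286. By Fisher's exact test on presence, 17 genes and 0 members had an unadjusted p under 0.05, and none after adjustment. Mean peak length was higher with Tcf-1 RV at 31 and lower at 12 of 43 members with a fibroblast peak, with a median difference of 0.051 kb, beside 11802 of 14702 genes higher and a median of 0.0819 kb. Divided by the bp of all peaks, 17 members were higher and 26 lower, so the balance of directions turned with the scaling.

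Merged across the 8 libraries, 43 fibroblast regions lay near members. Of these, 14 (32.6%) were in all 8, beside 24% of all regions. None was in all Tcf-1 RV and no Empty RV libraries (1.08% of all regions were), and none in the reverse pattern (0.110%). The 14 shared regions had a median width of 0.6375 kb, and the other 29 one of 0.298 kb. Within the libraries tagged day 2, 1 gene (H2bc21, 0 and 0 kb in Empty RV against 0.378 and 0.376 kb) and 2 regions were in both Tcf-1 RV and neither Empty RV library, beside 3.39% of all genes and 17.7% of all regions of those 4 libraries. Within day 4 the pattern ran the other way at 1 gene (H3c4, 0.213 and 0.217 kb in Empty RV against 0 and 0 kb) and 2 regions, beside 0.416% of all genes and 3.46% of all regions. H2bc21 held 0.361 and 0.679 kb in the day 4 Empty RV libraries. The day 2 Empty RV lists were also the 2 shortest of that arm, so day and list length cannot be told apart. In the KO thymocyte lists, which were shorter still, H2bc21 held 0.309 and 0.265 kb.

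Thymocytes and fibroblasts differed at a few members. H2bu2 and H1f1 were open in both WT and no Empty RV library (3.03% of members, beside 3.38% of all genes). H2bu2 (Hist3h2ba, an H2B gene) held 0.338 and 0.416 kb in WT, 0.287 and 0 kb in KO and 0 in all 8 fibroblast libraries. H1f1, a linker histone gene, held 0.276 and 0.314 kb in WT, 0 and 0.200 kb in KO and 0 in all fibroblast libraries. In both, 1 of the 2 KO libraries kept the peak. These cells differ in strain, culture and list length too, which cannot be told apart from cell type.

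No member was open in all 4 Empty RV and no WT library (4.44% of all genes were), but without Empty RV replicate 1 the linker gene H1f2 and the H3 gene H3c6 met that pattern. H1f2 held 0 kb in all 4 thymocyte libraries, 0, 0.263, 0.290 and 0.293 kb in Empty RV and 0.232, 0.285, 0.307 and 0.289 kb in Tcf-1 RV, in a region over its start (chr13:23738728-23739034). H3c6 held 0 kb in thymocytes, 0, 0.147, 0.152 and 0.136 kb in Empty RV and 0.173, 0.176, 0.116 and 0.174 kb in Tcf-1 RV. Its region lay 0.825 to 1.12 kb upstream of the start (chr13:23563210-23563507).

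At other members open in both cell types, the place held by the most libraries differed between them. In Hist2, the thymocyte region shared by all 4 libraries (chr3:96220684-96221234) lay over the H2ac20 start. The region in all 8 fibroblast libraries (chr3:96219583-96220230) lay over the H2ac21 start. A fibroblast region over H2ac20 (chr3:96220625-96221201) was in 6, and a thymocyte region over the H2ac21 start (chr3:96219752-96219974) was in WT replicate 2 alone. At H4c11 the fibroblast region (chr13:21734025-21734512, in 3 libraries of each arm) lay 0.522 to 1.01 kb upstream of the start, apart from the WT region. Tcf-1 RV replicate 1 instead held a region inside the WT region (chr13:21735443-21735642). At H1f3 the fibroblast region in all 8 libraries (chr13:23556100-23556448) lay 1.07 to 1.42 kb after the start, where the WT-only region ends, and the start itself carried a region in 3 of 8.

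Islands of repressive marks lay near few histone genes in fibroblasts. An H3K27me3 island of both replicates lay within 1 kb of 3 members (4.55%), beside 26% of all genes. An H3K9me3 island of both replicates lay near 0 members, beside 22.3%. These windows include the whole gene, and most members are short, so the shares are not compared at equal length. H2bu2 lay wholly inside H3K27me3 islands, which covered 100% of the gene and 93% of its window. The islands were chr11:58941201-58953399 in replicate 1 (420 ChIP reads, 2.15-fold over control, adjusted p 6.56e-44, the authors' values) and chr11:58940801-58950199 in replicate 2 (326 reads, 2.21-fold, adjusted p 2.17e-36, the authors' values). The testis-specific genes H2ac1 and H2bc1 had 36.9% and 6.41% of their windows, and 0% of the genes, inside islands of both replicates. The island of replicate 1 (chr13:23934201-23948399) covered H2ac1, and that of replicate 2 (chr13:23935001-23944799) began past its end at 23934913. H2bu2, H2ac1 and H2bc1 lacked a peak in all 8 fibroblast libraries, and none of the other 63 members, open or not, had an island of either mark near it in either replicate.

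Tcf-1 summits lay near 16 members (24.2%), beside 35.5% of all genes, again without matching for gene length. They were 23 different summits, and scores (the authors') are given for description. The highest lay at chr3:96221549, inside H2bc21 and 0.669 kb upstream of the H2ac20 start, and scored above 96.4% of all summits. Next were a summit at chr13:23685720 near H2bc4 (53.4), above 86.5%, and one at chr3:96268371 near H3c13 (18.8), 0.283 kb upstream of its start. The remaining summits scored 2.63 to 14.1, under the median of 17 of all summits, and lay near H4c14, H4c11, H4c8, H2bc9, H3c7, H2bc8, H3c4, H2bc6, H2ac6, H2bc3, H4c1 and H3c1. The long H2bc6 annotation alone took 5 of them.

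Of the 23 summits, 6 (26.1%) lay under a peak of at least 1 NIH3T3 library, against 56.2% of the 21939 summits within 1 kb of any protein-coding gene. The 6 were at H4c11, at H2bc9 (0.025 kb upstream of the start), at H2bc6 (0.056 kb upstream), at H2bc3 (0.088 kb upstream) and at H4c1 (0.153 kb upstream, and a second 0.779 kb after the start under 1 Tcf-1 RV library). The H2bc6 and H2bc3 summits lay under peaks in all 8 libraries, so those places were in the lists of both arms. The 3 highest-scoring summits lay under no fibroblast peak. With 1 pooled list there is no replicate check of these summits. The list carries day 2 in its name, while the 8 ATAC lists carry day 2 or day 4.

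Of 22 genes that transcribe and process histone mRNAs, among them Npat, the coactivator of the histone locus body, and Slbp, which binds the stem-loop, 22 were open in both WT libraries, 22 in all 8 fibroblast libraries and 20 in all 4 thymocyte libraries, beside 52.7%, 45.5% and 39.4% of all genes. The difference from the histone genes was not tested, and gene length was not matched. E2f4, a repressor of cell cycle genes, was open in both WT and neither KO library, and Tcf-1 summits lay near 11 of the 22, beside 35.5% of all genes. Sympk, a part of the 3′ end cleavage complex, and Nfyc, a subunit of the CCAAT-binding factor, had H3K27me3 islands of both replicates over 1.31% and 4.44% of their windows. Of 19 histone chaperones and carriers of new histones, 19 were open in both WT libraries and 17 in all 4 thymocyte libraries, with Atrx open in both WT and neither KO library.

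Of 12 histone genes outside the Hist1, Hist2 and Hist3 clusters, 7 were open in all 12 libraries, beside 33.4% of all genes. Among the 7 were H3f3a, H3f3b, H2az1 and H2az2. Of the 12 genes, 8 were open in both WT libraries and 9 in all 8 fibroblast libraries. Macroh2a2 was open in 0 of 2 WT, 0 of 2 KO and all 8 fibroblast libraries, and the linker gene H1f0 in 0 of 2 WT, 1 of 2 KO and all 8 fibroblast libraries. H1f10 had 64.6% of its window in H3K27me3 islands and a peak in 1 Tcf-1 RV library. H4f16 (Hist4h4), an H4 gene, was open in none of the 12 libraries. Of the 50 other protein-coding genes between the ends of Hist1, 41 were open in none of the 12 libraries, beside 28.9% of all genes. An H3K27me3 island of both replicates lay within 1 kb of 8 of them, beside 26% of all genes. For H3K9me3 it was 2, beside 22.3%. A Tcf-1 summit lay within 1 kb of 1, beside 35.5%. Gene length was not matched.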

How the data were processed

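Analysed were 12 ATAC-seq peak lists, 4 lists of histone-mark islands and 1 list of Tcf-1 summits, from 16 of 321 samples with a file of their own plus the pooled list; the other samples were not analysed here. The submitters' processing notes name MACS2, Picard, STAR 2.5, Bowtie2 2.2.9, Trim Galore and FastQC and the builds GRCh37, GRCm38 and mm10, with no role given. The authors' deposited ATAC lists hold positions only; their calling and filtering was not given in the sources used here. Per the file headers and values, the deposited island files give read counts in ChIP and control, a p-value, a fold ratio over control and an adjusted p-value, and the authors' summit file gives a score.

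Coordinates were set against RefSeq genes of GRCm38.p6. A gene was open with 1 bp of a peak within 1 kb. 293 peaks on unplaced sequences were left out. Islands of both replicates are their intersection. Depth is unknown for the ATAC lists. Presence was tested with Fisher's exact test and peak length (bp covered by peaks) with an exact permutation test over libraries for all 21887 genes, with Benjamini-Hochberg adjustment (Python 3.11.15, scipy 1.17.1, numpy 2.4.6, pandas 2.3.3), and tested on simulated data. Promoter identity used edlib. Members with values are those called in a contrast, with most peak bp, a summit, an island, no peak or a peak in 1 cell type. Members, lists and tests were chosen with earlier results of these data known. Replicate lists shared 30.9% to 69.9% of their bp, so none were duplicates.

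Same-numbered Empty RV and Tcf-1 RV libraries deviated together (correlations of 0.187, 0.189, 0.125 and 0.260 across genes), so the numbers were taken to pair them, from the data and not from the labels. Different-numbered libraries of the same day tag also correlated (0.0648 to 0.194, the highest being Empty RV replicate 2 with Tcf-1 RV replicate 1, above 3 of the 4 same-numbered values), and those of different days were negative, so shared number and shared day cannot be told apart. In thymocytes the correlation was -0.0505 and the libraries were not paired. Alternatives were other windows, equal list lengths, left-out libraries, paired patterns, day tags and stricter islands and summits.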

Additional observations from a re-analysis of the deposited data

Results flagged for a closer look

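Among groups of 4 fibroblast libraries (class counts, sums and peak length per gene, in Empty RV or Tcf-1 RV), 18 (16.1%) had 1 library far from the other 3 by Dixon's test. The cut-off is set for about 1 in 20 groups of continuous values, while many groups here hold tied counts or zeros. No excess can therefore be read from the 16.1%. The groups also share libraries and regions, so they are not separate tests. In 8 of the 18 the library was Empty RV replicate 1, the shortest fibroblast list: it had 1 open H1 gene where the others had 4, 11 open H2A genes where the others had 12, and 0 kb at H1f5, H3c6, H4c4, H1f2, H2ac4 and H3c2, where the others all held peaks. In 3 it was Empty RV replicate 4, the longest Empty RV list, with the arm's only peaks at H3c15 (0.227 kb), H3c10 (0.200 kb) and H4c9 (0.235 kb).

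Among Tcf-1 RV libraries, replicate 3, the shortest of that arm, was apart with 3 open H4 genes where the others had 4, 0.214 kb at H2bc9 and H3c7 and 0.116 kb at H3c6. Replicate 2 was apart with 0.379 kb at H2ac10 and 0.219 kb at H3c4, and replicate 4 with 0.344 kb at H3c11.

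In counts and summed length, the Tcf-1 RV minus Empty RV difference of same-numbered libraries ran up in both day 2 pairs and down in both day 4 pairs. For open members it was 15 and 2 against -3 and -3, for peaks near members 15 and 4 against -4 and -3, and for their bp 5995 and 1857 against -2896 and -400. As a percentage of all peak bp of the library, the bp near members were lower with Tcf-1 RV in all 4 pairs (differences of -0.00223, -0.00519, -0.00123 and -0.00726 percentage points, from 0.0597% to 0.0731% with Empty RV). The difference between days was not tested. The whole lists differed by 24845, 8926, -10236 and 4613 peaks in the same pairs.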

How the results depend on the processing

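The thymocyte counts moved with the window and the list length. Members open in both WT and neither KO library numbered 6, and 13 with no window, 2 with 5 kb, 1 with equal numbers of the widest peaks and 6 to 11 without 1 library; 10 and 11 came without KO replicate 1 or 2. Regions of that pattern numbered 11, 1 with equal lists and 12 to 16 without 1 library. Members open in all 4 libraries numbered 25, 15 with no window and 25 to 30 without 1 library. Lower peak length in KO at 42 members became 23 after division by all peak length, which was chosen after seeing the data, as were the promoter window (5, 19 and 19 members for the patterns lost, all 4 and all 8) and the alternatives for cell type. In fibroblasts, 24 members open in all 8 libraries became 14 with no window, 12 with equal lists, 24 to 36 without 1 library (36 without Empty RV replicate 1) and 37 within day 4. The 0 genes and 0 regions of either full pattern stayed 0 in the other alternatives run, but day 2 alone gave 1 gene and 2 regions up with Tcf-1 RV and day 4 alone 1 gene and 2 regions down. The paired pattern (replicate block, 3 of 4 pairs with none reversed) gave 0 in fibroblasts. In thymocytes the block needed both pairs, which is the same rule as both WT and neither KO library. Its 6 genes and 11 regions there are therefore no check of that pattern. No paired analysis was possible for genes open in all libraries because that count has no contrast. H3K27me3 marked 3 members, 1 with no window or by the gene's midpoint. Summits lay near 16 members, 6 with no window, 37 with 5 kb and 4 above the median score. Members open in DP only numbered 2, 4 with no window, 1 with 5 kb and 2 to 4 without 1 library, and in fibroblasts only 0 to 2 without 1 library. The peak lists carry no depth, so a missing peak is not a measured absence of open chromatin.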
